A study of Bombyx mori with 4 samples.

Results

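Unstimulated prothoracic glands of the silkworm Bombyx mori were compared after 3 h and after 1 h in culture, as control 3 h against control 1 h. These are 2 of the 4 libraries of the series, and the other two, PTTH 3 h and PTTH 1 h, come from glands given 10 nM recombinant prothoracicotropic hormone (PTTH). All glands were taken from racial hybrid larvae on day 4 of the fifth instar, rested for 30 min in Grace's medium, an insect culture medium, and then held in it at room temperature for 3 or 1 h. The controls received no recombinant hormone. Glands of 12 to 18 larvae made an RNA preparation, and 2 preparations were pooled into each library, so each group is 1 library. The glands of a pair were divided between hormone and control, and the 3 h and 1 h libraries come from different larvae. Time in culture and larval pool therefore cannot be told apart in any value below.

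The prothoracic gland is the endocrine organ of insect larvae that makes ecdysteroids from dietary sterols, and their pulses in the blood set the time of each moult and of metamorphosis. PTTH is a brain peptide that acts on the gland through the receptor tyrosine kinase Torso and raises its output. A gland cut off from the brain and held in medium goes on secreting at a low basal rate, and such glands are the usual control in work on the hormone. The comparison of the controls asks what differs in glands between the times without the hormone.

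Of the 14622 loci in the table, 8547 on 354 scaffolds averaged at least 1 FPKM in the 4 libraries and were compared. FPKM is a fragment count adjusted for transcript length and for library size. The loci carry no gene names, so they are given by scaffold position, and neither the labelled tissue nor markers of other tissues could be checked. The authors' confidence limits imply a median of 268 fragments per compared locus in control 3 h and 248 in control 1 h. In RNA of whole glands a lower level can mean fewer cells of a type or less RNA per cell, and these cannot be told apart. The summed FPKM of all loci was 760179 in control 3 h and 697859 in control 1 h.

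Most of the glands' transcriptome stood at like levels at the times, with a tail of loci that was longer upwards. The log2 ratio of (FPKM + 1), control 3 h over control 1 h, had a median of 0.06 and quartiles of -0.19 and 0.33. Within 1.5-fold lay 7248 loci, which is 84.8% of those compared. At least 2-fold higher at 3 h were 202 loci (2.36% of those compared), and at least 2-fold lower 106 loci (1.24%). With the further demand that the authors' limits lie apart, 149 loci were higher (1.74%) and 61 lower (0.714%). Those that met the fold but not the demand on limits had few fragments, a median of 7.49 over both controls for the 53 higher and 7.99 for the 45 lower. At 4-fold with limits apart, 13 loci were higher (0.152%) and 1 was lower (0.0117%), the 1 being a locus listed at 0 in control 3 h. Whatever the size of the difference, limits lay apart for 2134 loci that were higher (25%) and for 1093 that were lower (12.8%). At 1.5-fold, without regard to limits, 842 loci were higher (9.85%) and 457 lower (5.35%), and at 4-fold 24 were higher (0.281%) and 11 lower (0.129%).

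The balance of the directions depended on the scaling between the libraries. As deposited, 65.6% of the 2-fold different loci were higher at 3 h. Rescaled so that every library had the same total FPKM, which lowers the ratios by 0.12 on the log2 scale, 161 loci were higher and 157 lower, or 50.6% higher. After centring on the median, 172 were higher and 129 lower (57.1% higher), and with upper-quartile scaling 175 and 122 (58.9%). The excess of higher loci was thus smaller than as deposited under each rescaling, and smallest with the fixed total.

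**Figure D1:**
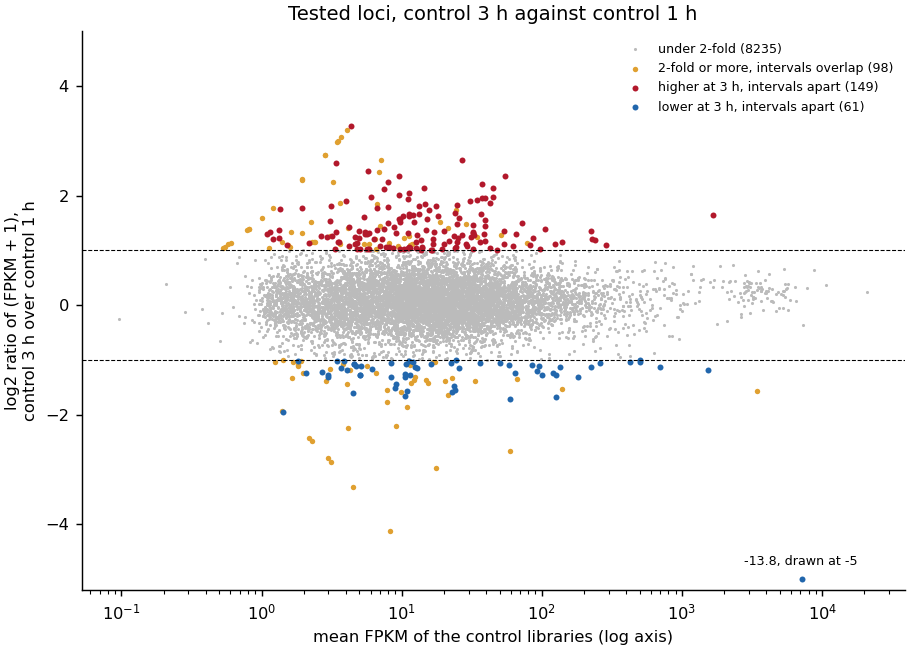
Each point is a locus, with the mean FPKM of the control libraries on a log axis and the log2 ratio of (FPKM + 1), control 3 h over control 1 h, on the vertical axis. Dashed lines mark 2-fold, colours separate the 149 higher and 61 lower loci with limits apart from the 98 with overlapping limits, 1 locus at -13.80 is drawn at the lower edge, and 4 loci at 0 in both controls are not drawn.

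The loci that stood highest at 3 h relative to 1 h ranged from a barely detected one to abundant ones. The 149 higher loci with limits apart had a median of 18.8 FPKM in control 3 h against 6.76 FPKM in control 1 h. One identifier named by rule was XLOC_000663 at nscaf1690:3189321-3196609. It had 47.3 FPKM (limits 44.9 to 49.7) in control 3 h against 6.74 FPKM (5.80 to 7.67) in control 1 h, 7.02-fold higher, with 98.1 FPKM in PTTH 3 h and 25.8 FPKM in PTTH 1 h. Its log2 ratio in the controls was 2.64 ± 0.09 (counting SE, 1 library each). This locus was thus higher at 3 h in both pairs of libraries, and lowest of all in control 1 h. The other, XLOC_014284 at scaffold1085:1401-2514, had 12.9 FPKM (3.17 to 22.7) in control 3 h against 1.22 FPKM (0 to 4.69) in control 1 h. It rests on 7.02 and 0.495 implied fragments, and its limits overlap.

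A low locus at nscaf2953:445421-446159 had 6.59 FPKM (5.14 to 8.03) in control 3 h against 0.250 FPKM (0 to 0.539) in control 1 h. The 1 h value rests on 3.00 implied fragments, so its fold is known only roughly. PTTH 3 h had 38.9 FPKM and PTTH 1 h 0.539 FPKM, so both 1 h libraries were near 0. The locus at nscaf651:94517-96392 had 10.4 FPKM (7.97 to 12.8) in control 3 h against 1.10 FPKM (0.269 to 1.93) in control 1 h, and PTTH 3 h had 7.68 FPKM where PTTH 1 h had 0.644 FPKM. At nscaf2838:34611-35283 the controls had 12.8 FPKM (10.7 to 15.0) at 3 h and 2.17 FPKM (1.25 to 3.09) at 1 h, and the PTTH libraries 8.59 and 1.37 FPKM at the same times. These loci had the same order of times with and without hormone. The locus at nscaf3097:2657345-2659376 was of this kind too, 5.49-fold higher in the controls at 10.2 against 1.86 FPKM, and 4.72-fold higher with PTTH.

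The long locus at nscaf2887:351878-376330 had 74.1 FPKM (71.5 to 76.6) in control 3 h against 16.1 FPKM (14.8 to 17.3) in control 1 h. Its log2 ratio in the controls was 2.14 ± 0.06. PTTH 3 h had 64.1 FPKM and PTTH 1 h 18.0 FPKM, so the hormone libraries lay near the controls of their own time. At nscaf2993:2145631-2148938 the controls had 24.2 FPKM (19.9 to 28.5) at 3 h and 4.70 FPKM (2.74 to 6.67) at 1 h, and the PTTH libraries 17.4 and 5.93 FPKM. The locus at nscaf2930:4729290-4734037 had 62.2 FPKM in control 3 h against 12.6 FPKM in control 1 h, and PTTH 3 h had 41.7 FPKM where PTTH 1 h had 5.57 FPKM. Here control 3 h was the highest of the libraries and PTTH 1 h the lowest.

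Other loci stood apart in control 3 h alone. The short locus at nscaf2529:4343578-4343905 had 91.6 FPKM (80.7 to 103) in control 3 h, while control 1 h had 17.2 FPKM (12.1 to 22.3), PTTH 3 h 20.4 FPKM and PTTH 1 h 13.9 FPKM. At nscaf2986:3882476-3890786 control 3 h had 15.8 FPKM (14.3 to 17.4) and control 1 h 3.20 FPKM (2.48 to 3.91), with PTTH 3 h at 2.96 FPKM and PTTH 1 h at 2.88 FPKM. At nscaf2859:19877-25368 control 3 h had 60.4 FPKM (58.0 to 62.7) and control 1 h 14.9 FPKM (13.7 to 16.1), with 10.3 FPKM in PTTH 3 h and 10.7 FPKM in PTTH 1 h. In these loci the PTTH libraries of the times differed by less than 1.5-fold. The locus at nscaf1690:6182012-6210424 lay between, 4.99-fold higher in the controls, at 18.7 against 3.74 FPKM, and 1.75-fold higher with PTTH. Of the 15 higher loci named by ratio, 11 were at least 2-fold higher with PTTH too and 3 were within 1.5-fold. Of all compared loci, 4.2% and 81.6% were so with PTTH.

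**Figure D2:**
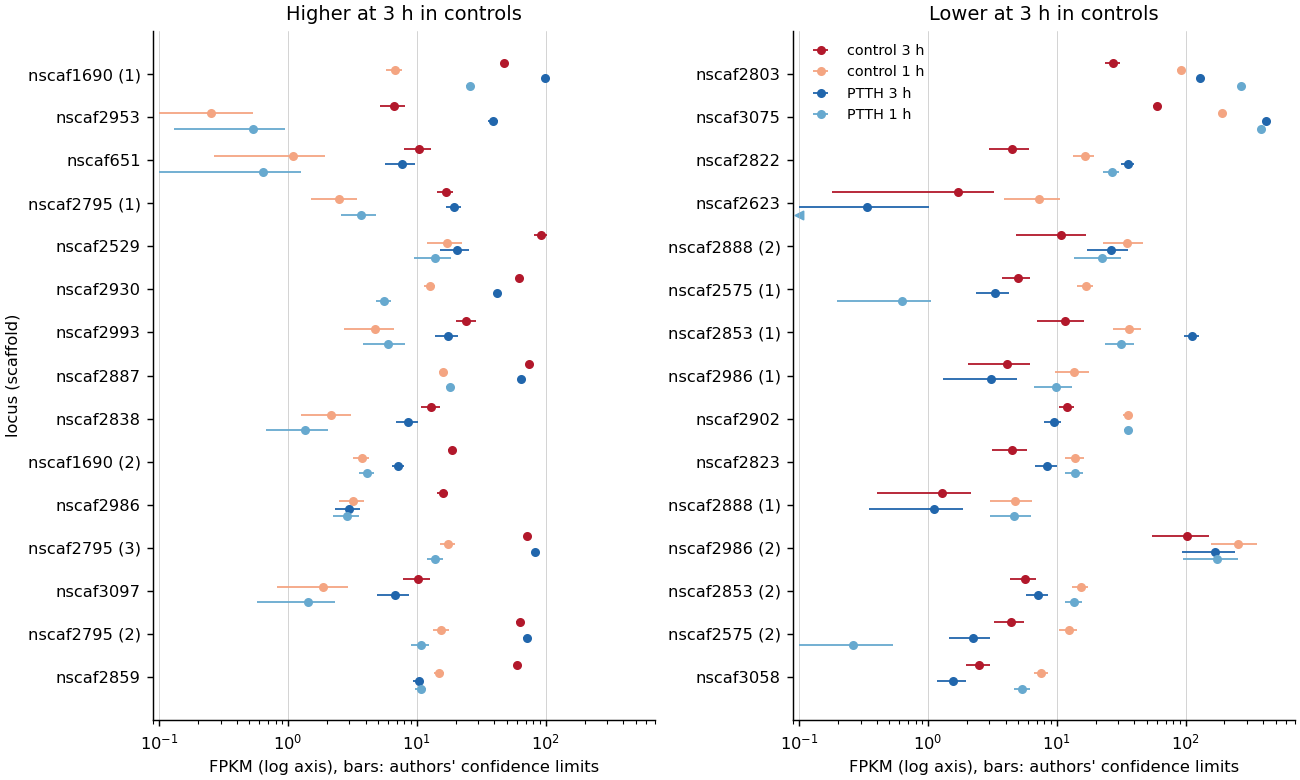
Points are FPKM on a log axis in control 3 h, control 1 h, PTTH 3 h and PTTH 1 h, with the authors' limits as bars, for the 15 highest (left) and 15 lowest (right) log2 ratios of control 3 h over control 1 h with limits apart. Loci are labelled by scaffold, numbered along it where it holds several, a triangle marks a value of 0 and bars that reach 0 are cut at 0.1 FPKM; control 3 h lies right of control 1 h in every locus on the left and left of it in every locus on the right.

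As deposited, abundant loci were mostly a little higher at 3 h. Of 183 loci that averaged at least 500 FPKM in the controls, 142 were higher and 41 lower at 3 h by any amount. Of all 8547 compared loci, 4849 (56.7%) were higher. The median log2 ratio of the 183 was 0.23 against 0.06 over all compared loci. A fixed total per library lowers the ratios by 0.12. With PTTH, 185 loci averaging at least 500 FPKM over the 4 libraries had a median of 0.13, against -0.03 over all. Of the 183, 1 was 2-fold higher (0.546%, against 2.36% of all compared loci) and 5 were 2-fold lower (2.73%, against 1.24%). Of the 5, 1 was listed at 0 in control 3 h. No test was made of these shares, which rest on few loci. The top locus of control 3 h, at nscaf2800:2702344-2702905, had 22640 FPKM (14082 to 31197) in control 3 h against 19240 FPKM (7910 to 30569) in control 1 h, with limits that overlap widely. The locus at nscaf2511:5369107-5371668 had 10680 FPKM in control 3 h against 6875 FPKM in control 1 h. Its levels with hormone were nearly the same, 10701 FPKM in PTTH 3 h and 6894 FPKM in PTTH 1 h.

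The 1 abundant locus that was 2-fold higher was nscaf2886:229940-233028, at 2524 FPKM (2470 to 2577) in control 3 h against 803 FPKM (772 to 835) in control 1 h. PTTH 3 h had 302 FPKM and PTTH 1 h 303 FPKM, so the PTTH libraries were level and both lay below the controls. Further down in level, nscaf2888:8342474-8344810 had 326 FPKM (319 to 332) in control 3 h against 126 FPKM (123 to 130) in control 1 h, and 628 and 162 FPKM in PTTH 3 h and PTTH 1 h. The locus at nscaf2876:1403557-1406432 had 192 FPKM in control 3 h against 86.1 FPKM in control 1 h, with PTTH 3 h at 266 FPKM and PTTH 1 h at 92.0 FPKM. These were higher at 3 h in both pairs of libraries. The long locus at nscaf3072:924358-935938 had 154 FPKM (149 to 158) in control 3 h against 58.2 FPKM (55.3 to 61.0) in control 1 h, and 93.9 and 55.8 FPKM in PTTH 3 h and PTTH 1 h. The short one at nscaf1898:215385-215625 had 171 FPKM (150 to 193) in control 3 h against 78.7 FPKM (62.7 to 94.7) in control 1 h, and 134 and 74.4 FPKM in PTTH 3 h and PTTH 1 h. Both differed in the same direction with the hormone. The log2 ratio with PTTH minus that of the controls was -0.65 ± 0.06 (counting SE) at the long locus and -0.27 ± 0.24 at the short one. A smaller difference with hormone is thus not resolved from counting error at the short one. Elsewhere on nscaf1898, 7742016-7744224 had 318 FPKM (298 to 338) in control 3 h against 137 FPKM (123 to 151) in control 1 h, and 7858375-7865086 had 392 FPKM (387 to 397) and 183 FPKM (180 to 186). Between the PTTH libraries these 2 loci were nearly level, the first at 135 FPKM in PTTH 3 h and 131 FPKM in PTTH 1 h, the other at 162 and 158 FPKM. Likewise nscaf2529:4391316-4391889 had 333 FPKM in control 3 h against 146 FPKM in control 1 h, with PTTH 3 h at 114 FPKM and PTTH 1 h at 91.5 FPKM.

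As deposited, the loci lower at 3 h were fewer and their folds smaller. With a fixed total per library the counts were nearly equal, at 161 higher and 157 lower. The 61 lower loci with limits apart had a median of 7.45 FPKM in control 3 h against 17.5 FPKM in control 1 h. The locus at nscaf2803:14721-15288 had 27.2 FPKM (23.7 to 30.8) in control 3 h against 91.7 FPKM (84.9 to 98.5) in control 1 h, 3.37-fold lower, with a log2 ratio of -1.72 ± 0.11 (counting SE, 1 library each). PTTH 3 h had 130 FPKM and PTTH 1 h 270 FPKM, so the same order held at a higher level. At nscaf2902:5081951-5083086 the controls had 12.0 FPKM (10.4 to 13.7) at 3 h and 35.5 FPKM (32.5 to 38.4) at 1 h, and the PTTH libraries 9.43 and 35.7 FPKM. The low locus at nscaf3058:4343475-4347613 had 2.51 FPKM (1.97 to 3.05) in control 3 h against 7.54 FPKM (6.59 to 8.48) in control 1 h, with PTTH 3 h at 1.57 FPKM and PTTH 1 h at 5.38 FPKM. At both, each 3 h library lay below each 1 h library. So did the libraries of nscaf2986:1424371-1424719 and nscaf2888:1622129-1623237, which were 3.32-fold and 3.66-fold lower in the controls and 3.20-fold and 4.19-fold lower with PTTH.

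At most other loci named by ratio here, control 3 h was the lowest of the libraries. The locus at nscaf3075:951708-952998 had 59.6 FPKM (56.1 to 63.1) in control 3 h, while control 1 h had 193 FPKM (186 to 200), PTTH 3 h 423 FPKM and PTTH 1 h 382 FPKM. At nscaf2822:169275-169806 control 3 h had 4.51 FPKM (2.99 to 6.04) and control 1 h 16.5 FPKM (13.4 to 19.5), with 35.7 FPKM in PTTH 3 h and 26.6 FPKM in PTTH 1 h. The short locus at nscaf2888:4348686-4348911 had 10.8 FPKM (4.82 to 16.8) in control 3 h against 34.8 FPKM (22.7 to 46.8) in control 1 h. It had 26.5 FPKM in PTTH 3 h and 22.6 FPKM (13.5 to 31.7) in PTTH 1 h, whose limits overlap those of control 3 h. At these loci PTTH 3 h lay above control 3 h. The locus at nscaf2823:1367199-1367838 had 4.48 FPKM (3.13 to 5.82) in control 3 h against 13.9 FPKM (11.5 to 16.3) in control 1 h, and 8.41 and 13.8 FPKM in PTTH 3 h and PTTH 1 h. At nscaf2853:2619372-2628474 the controls had 5.62 FPKM (4.34 to 6.89) at 3 h and 15.4 FPKM (13.2 to 17.6) at 1 h, and the PTTH libraries 7.15 and 13.6 FPKM. Both were lower at 3 h in each pair of libraries, with PTTH by less than 2-fold. The poorly covered locus at nscaf2623:112764-114393 had 1.71 FPKM (0.179 to 3.24) in control 3 h against 7.25 FPKM (3.88 to 10.6) in control 1 h, and 0.339 FPKM and a listed 0 in PTTH 3 h and PTTH 1 h. There control 1 h was the highest of the libraries, and control 3 h was not the lowest. Of the 15 lower loci named by ratio, 5 were at least 2-fold lower with PTTH too, 5 were within 1.5-fold and 3 were at least 2-fold higher. Of all compared loci, 1.73%, 81.6% and 4.2% were so with PTTH.

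Of the 8 abundant loci named among the lower ones, 5 spanned under 1000 bases. Of all 8547 compared loci, 498 spanned under 500 bases and 711 spanned 500 to 1000. Of the 61 lower loci with limits apart, 10 and 16 were in these classes, so short span was not particular to the abundant ones. The locus at nscaf2770:1009190-1010060 had 432 FPKM (421 to 443) in control 3 h against 954 FPKM (936 to 971) in control 1 h, and 1140 and 1261 FPKM in PTTH 3 h and PTTH 1 h. At nscaf2951:682832-683029 control 3 h had 930 FPKM (765 to 1095) and control 1 h 2111 FPKM (1770 to 2452), with 1410 FPKM in PTTH 3 h and 1714 FPKM in PTTH 1 h. At nscaf3031:700529-701296 the values were 331 FPKM (309 to 352) in control 3 h against 665 FPKM (632 to 699) in control 1 h, with 464 and 494 FPKM in PTTH 3 h and PTTH 1 h. These 3 stood within 1.5-fold between the PTTH libraries. So did nscaf2136:6851869-6854385, at 169 FPKM (151 to 187) in control 3 h against 352 FPKM (325 to 380) in control 1 h, and nscaf2883:1863278-1863795, at 140 FPKM (116 to 164) against 307 FPKM (267 to 348). The shortest, nscaf2986:5194420-5194579, rests on few fragments, at 103 FPKM (54.9 to 150) in control 3 h against 257 FPKM (156 to 357) in control 1 h. The locus at nscaf2930:99035-103148 was lower at 3 h in both pairs, at 280 FPKM (269 to 290) in control 3 h against 576 FPKM (560 to 592) in control 1 h, and 256 against 644 FPKM with PTTH. So was nscaf2931:942070-944291, at 328 against 677 FPKM in the controls and 241 against 510 FPKM with PTTH.

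A few values were listed at 0, and no fold is given for them. Of the compared loci, 10 were at 0 in control 3 h only, 19 in control 1 h only and 4 in both. XLOC_003452, at nscaf2674:615917-617309, was listed at 0 with limits of 0 to 0 in control 3 h and at 14247 FPKM in control 1 h, with 16308 FPKM in PTTH 3 h and 13889 FPKM in PTTH 1 h. XLOC_000831, at nscaf1867:1134-1728, was listed at 0 in control 3 h and at 16.5 FPKM in control 1 h, on 2.49 implied fragments. Both are the lowest ratios by the naming rule, and neither value gives a usable size. A 0 with limits of 0 to 0 beside 13889 FPKM or more in each of the other libraries can be a failed estimate in the authors' table. Without XLOC_003452, 105 loci were 2-fold lower, 60 of them with limits apart and 4 of them averaging at least 500 FPKM in the controls, and none was 4-fold lower with limits apart. A different case, chosen after its values were seen, is nscaf3008:1217847-1222219. It was listed at 0 in control 3 h and at 2.86 FPKM (1.93 to 3.79) in control 1 h, on 38.0 implied fragments, with 0.0365 FPKM in PTTH 3 h and 5.11 FPKM in PTTH 1 h.

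Higher loci often lay next to each other on their scaffold. Of the 202 loci at least 2-fold higher, 54 (26.7%) had an adjacent compared locus that was also 2-fold higher, where 370 of the 8547 compared loci (4.33%) had such a neighbour. Of the 106 lower loci, 10 (9.43%) had a lower neighbour, against 195 (2.28%) of all. The higher loci formed 5 runs of at least 3 and the lower loci none. A run of 6 at nscaf1071:346991-409845 is weak, since limits lay apart in 3 of its loci and 4 rest on under 10 implied fragments in control 3 h. The better measured of these are 359315-359899, at 56.9 FPKM (38.6 to 75.2) in control 3 h against 17.3 FPKM (4.66 to 29.9) in control 1 h, and 392662-393260, at 39.2 FPKM (24.0 to 54.4) and 10.3 FPKM (0.596 to 20.1).

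On nscaf2795 the run is part of a stretch of 8 neighbouring loci, from 1615443 to 1682261, that all had limits apart and were higher at 3 h in the controls, 5 of them by 2-fold on the (FPKM + 1) scale. With PTTH all 8 were at least 2-fold higher at 3 h. Of the 8, 4 loci have the same span of 771 bases, which only 8 of the compared loci have. If such loci are copies of one another, fragments could be divided among them, and their sequences were not examined here. The locus 1681490-1682261 had 72.0 FPKM (67.3 to 76.6) in control 3 h against 17.5 FPKM (15.2 to 19.9) in control 1 h, 4.10-fold higher, and 82.3 and 13.9 FPKM in PTTH 3 h and PTTH 1 h. The locus 1656057-1656828 had 62.6 FPKM (58.3 to 66.9) in control 3 h against 15.4 FPKM (13.2 to 17.6) in control 1 h, and 1672372-1673164 had 18.2 FPKM (16.0 to 20.5) and 4.04 FPKM (2.95 to 5.12). At the start of the stretch 1615443-1617479 was 6.78-fold higher, at 16.8 against 2.48 FPKM. The smallest difference was that of 1644957-1645728, at 13.7 FPKM (11.7 to 15.7) in control 3 h against 7.49 FPKM (5.95 to 9.03) in control 1 h. The neighbours thus shared the direction but not the level.

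A run of 3 on nscaf2511 differed in that the PTTH libraries of the times were closer to each other than the controls were. Its loci were 2287909-2292628, at 15.6 FPKM (13.4 to 17.8) in control 3 h against 6.99 FPKM (5.44 to 8.55) in control 1 h, then 2294437-2300247, at 2.27 FPKM (1.42 to 3.12) and 0.391 FPKM (0.0416 to 0.741), and 2301764-2319829, at 22.0 FPKM (19.9 to 24.1) and 7.90 FPKM (6.60 to 9.19). PTTH 3 h over PTTH 1 h had log2 ratios of 0.13 to 0.55 over them, where the controls had 1.06 to 1.37. The last of them was also higher with PTTH with limits apart, at 10.6 FPKM (9.17 to 12.0) in PTTH 3 h against 6.90 FPKM (5.74 to 8.07) in PTTH 1 h. At the others the PTTH limits overlap. The run on nscaf2891 has the abundant loci 286860-291168, at 47.7 FPKM (44.7 to 50.8) in control 3 h against 16.8 FPKM (14.9 to 18.6) in control 1 h, and 291578-294750, at 55.3 FPKM (51.9 to 58.7) and 21.8 FPKM (19.6 to 24.0). A little further along, 322852-327402 had 108 FPKM in control 3 h against 37.4 FPKM in control 1 h. On nscaf2822 a run of 3 short loci at 1695237-1702962 had limits apart in 1 of them. By scaffold, among those with at least 50 compared loci, the share of 2-fold higher loci was largest on nscaf2795, at 7 of 81 (8.64%). Next was nscaf2891, at 4 of 52 (7.69%), where 2.36% of all compared loci were 2-fold higher. These counts include the 5 loci of the stretch on nscaf2795 and the run of 3 on nscaf2891.

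**Figure D3:**
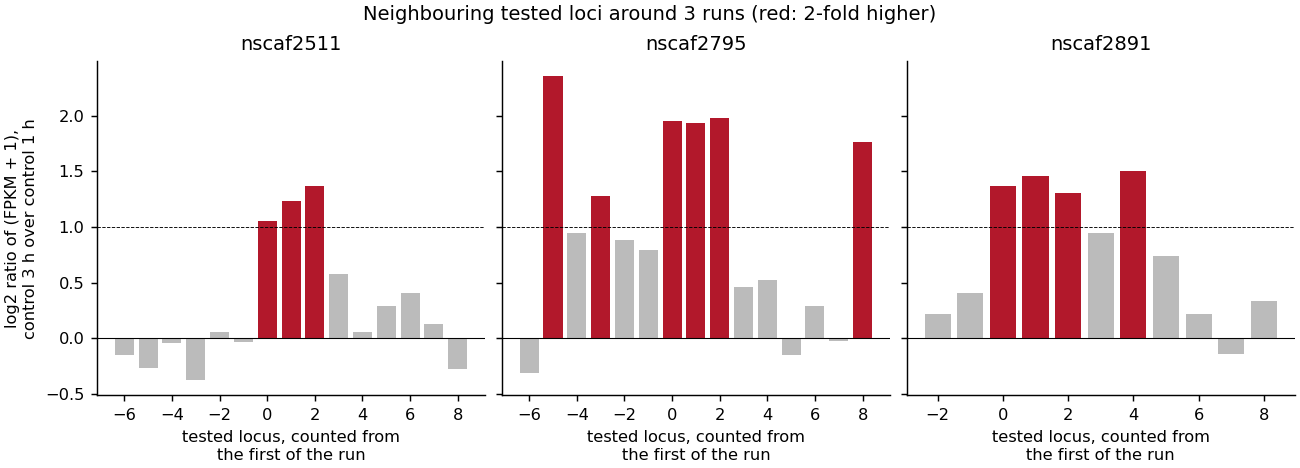
Bars are log2 ratios of (FPKM + 1), control 3 h over control 1 h, for neighbouring compared loci on 3 scaffolds in scaffold order, counted from the first locus of each run, and red bars are at least 2-fold higher (dashed line). The runs of 3 on nscaf2511, nscaf2795 and nscaf2891 stand at 1.06 to 1.98, with further higher loci nearby on nscaf2795 and nscaf2891.

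The ratio moved with the span of the locus on the scaffold, introns included. The median log2 ratio was -0.05 in 498 loci under 500 bases, -0.05 in 1155 loci of 1000 to 2000 bases, 0.10 in 1994 loci of 5000 to 10000 bases, 0.17 in 1488 loci of 10000 to 20000 bases and 0.29 in 511 loci of at least 20000 bases. Of the longest class, 405 loci (79.3%) were higher at 3 h by any amount, against 56.7% of all compared loci. With limits apart, 14 loci of that class (2.74%) were 2-fold higher and 1 (0.196%) lower, where 1.74% and 0.714% of all compared loci were. Under 500 bases 8 loci (1.61%) were higher and 10 (2.01%) lower. In the PTTH libraries the longest class was also the highest, with a median of 0.11, but the shortest was not the lowest, at 0.00. The PTTH medians were -0.13 at 500 to 1000 bases, -0.12 at 1000 to 2000, -0.01 at 5000 to 10000 and 0.03 at 10000 to 20000. Long loci also had more fragments, a median of 1320 over both controls in the longest class against 47.2 in the shortest. Within loci of 5 to 100 FPKM the medians were 0.35 for the longest class and -0.11 for the shortest, with median levels of 13.0 and 21.3 FPKM and 2022 and 67.9 fragments over both controls, so level and fragments still differed between the classes. Across the 8547 loci, which share their libraries and are not independent, Spearman's rho between span and ratio was 0.226 in the controls and 0.131 with PTTH. The part of the fragment number in the trend was not tested.

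Examples of long higher loci are nscaf3027:3646707-3677240, at 67.2 FPKM (64.7 to 69.6) in control 3 h against 17.7 FPKM (16.4 to 19.1) in control 1 h, and nscaf2855:2341820-2367619, at 77.3 FPKM (75.2 to 79.4) and 29.6 FPKM (28.2 to 30.9). With PTTH the first was nearly level, at 17.7 FPKM in PTTH 3 h and 17.3 FPKM in PTTH 1 h, and the other differed by less than 1.5-fold, at 43.8 and 36.9 FPKM. In contrast, nscaf1898:12869887-12891826 had 6.91 FPKM (6.09 to 7.72) in control 3 h against 1.11 FPKM (0.775 to 1.44) in control 1 h, and 13.8 against 1.10 FPKM with PTTH. Long loci thus included ones that were 2-fold higher at 3 h in both pairs of libraries and ones that were so in the controls and under 2-fold with PTTH. The 1 lower locus of the longest class, nscaf2993:662911-689592, overlaps another listed locus and had 1.94 FPKM (1.45 to 2.43) in control 3 h against 4.95 FPKM (4.17 to 5.74) in control 1 h.

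**Figure D4:**
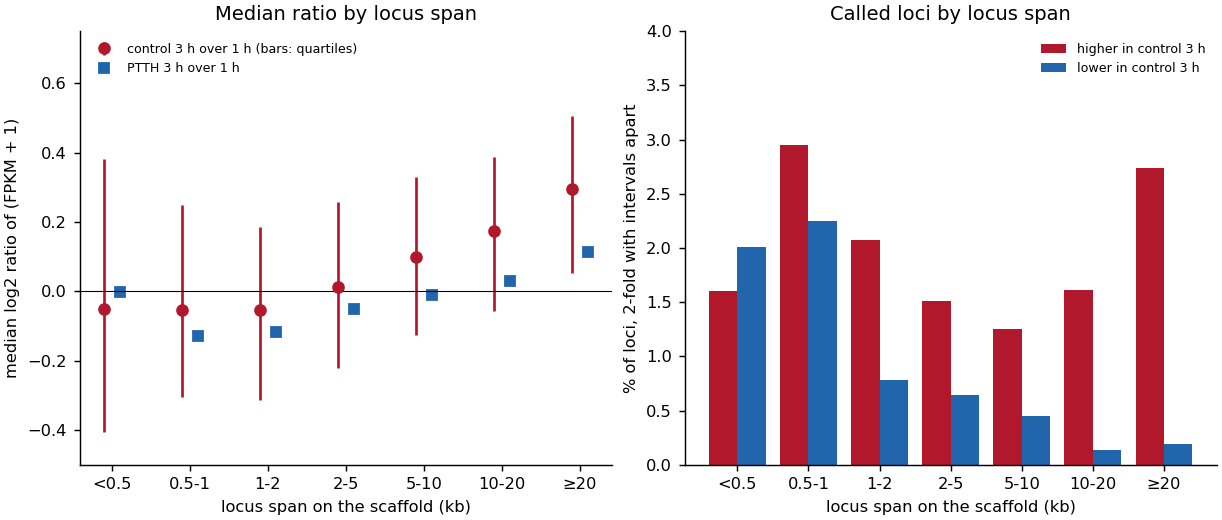
Left, median log2 ratios of (FPKM + 1) by locus span, with quartiles as bars for control 3 h over control 1 h and squares for PTTH 3 h over PTTH 1 h; right, the percent of loci in each span class that were 2-fold higher or lower in control 3 h with limits apart. The control median is -0.05 under 500 bases and 0.29 at 20000 bases or more, and the lower share is 2.01% in the shortest class and 0.196% in the longest.

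By mean level over the 4 libraries, the share of 2-fold higher loci was 3.26% at 1 to 2 FPKM, 2.95% at 2 to 5, 2.63% at 5 to 20, 1.94% at 20 to 100, 1.07% at 100 to 500 and 0.541% from 500 FPKM, against 2.36% of all compared loci. The share of 2-fold lower loci had no such order, at 1.42%, 1.94%, 1.11%, 0.695%, 2.50% and 2.16% in the same classes, against 1.24% of all. The upper 2 classes hold 6 and 1 higher and 14 and 4 lower loci, and no test was made of the shares. With limits apart, the share of higher loci did not fall from the lowest class. It was 1.13%, 1.71%, 2.11%, 1.72%, 1.07% and 0.541% in the same classes, against 1.74% of all, and so largest at 5 to 20 FPKM. Loci with under 20 implied fragments over both controls made up 49 of the 202 higher and 40 of the 106 lower loci, and 4 of these 89 had limits apart.

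The libraries with hormone are the other measurement of the same times. They share no library with the controls, but the control and PTTH glands of 1 time are pairs from the same larvae, so a difference between pools would stand in both. Of the 149 loci higher in the controls with limits apart, 65 (43.6%) were also at least 2-fold higher in PTTH 3 h than in PTTH 1 h, where 4.2% of all compared loci were. They are 18.1% of the 359 loci that were higher with PTTH. At 1.5-fold 9.31% of compared loci were higher and 9.1% lower with PTTH, and at 4-fold 0.772% and 0.199%. Within 1.5-fold with PTTH were 55 of the 149 (36.9%), against 81.6% of all compared loci, and 0 were 2-fold lower, against 1.73%. The median log2 ratio of the 149 was 1.31 in the controls and 0.88 with PTTH, and over all compared loci it was 0.06 and -0.03. Of the 61 lower loci, 17 (27.9%) were 2-fold lower with PTTH too, where 1.73% of all compared loci were, and they are 11.5% of the 148 lower with PTTH. Within 1.5-fold were 20 (32.8%), against 81.6% of all compared loci, and 4 were 2-fold higher, where 4.2% of all were. The median of the 61 was -1.18 in the controls and -0.67 with PTTH.

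The 4 loci with limits apart in the controls that went opposite ways were all lower at 3 h in the controls. At nscaf1681:2093311-2096370 control 3 h had 53.3 FPKM (48.7 to 57.9) and control 1 h 116 FPKM (109 to 123), while PTTH 3 h had 565 FPKM (551 to 580) and PTTH 1 h 258 FPKM (248 to 268). At nscaf2853:1131823-1133652 control 3 h had 11.7 FPKM (7.05 to 16.3) and control 1 h 36.3 FPKM (27.4 to 45.2), while PTTH 3 h had 112 FPKM (97.2 to 126) and PTTH 1 h 31.7 FPKM (23.8 to 39.7). The other two are neighbours on nscaf2575 and differ from these in being low with the hormone. The locus 4345299-4350998 had 5.01 FPKM (3.78 to 6.24) in control 3 h against 16.7 FPKM (14.4 to 19.1) in control 1 h, and 3.30 and 0.628 FPKM in PTTH 3 h and PTTH 1 h. The locus 4370066-4374241 had 4.41 FPKM (3.25 to 5.57) in control 3 h against 12.4 FPKM (10.4 to 14.4) in control 1 h, and 2.24 and 0.260 FPKM in PTTH 3 h and PTTH 1 h. In this pair the control 1 h library was the highest of all.

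**Figure D5:**
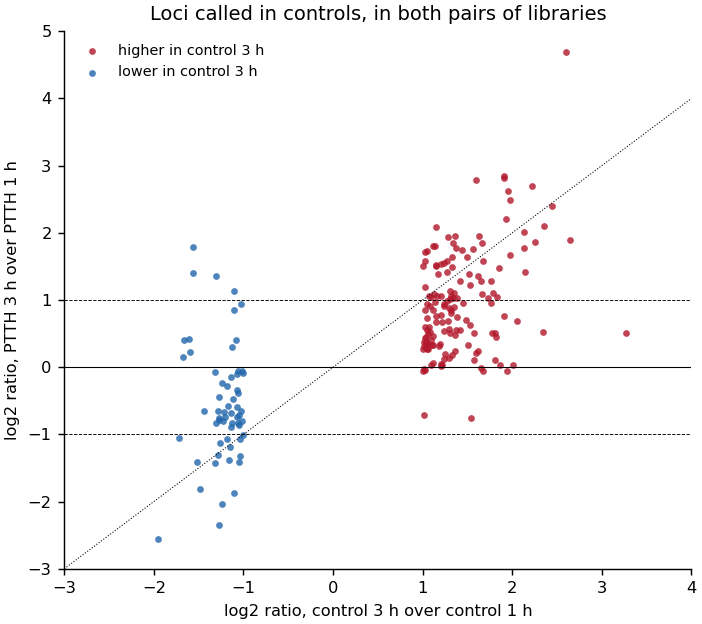
Each point is a locus that was 2-fold different between control 3 h and control 1 h with limits apart, with its log2 ratio in the controls on the horizontal axis and in the PTTH libraries on the vertical axis (dashed: 2-fold; dotted: equal ratios). Of the 149 higher loci 65 lie above the upper dashed line, and of the 61 lower loci, 1 of which is off the axis at -13.80, 4 lie above that line.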

How the data were processed

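RNA of silkworm prothoracic glands was sequenced as paired-end mRNA libraries, per the labels' protocols. The submitters' processing notes name CASAVA 1.8.0, SAMtools and TopHat, and the table's title names Cuffdiff. Build, annotation, strandedness, library scaling and the kind of limits were not given in the sources used here. The authors deposited FPKM values, already scaled for transcript length and library size, with a lower and an upper limit for 14622 loci. Positions are the table's, with the first base's number (0 or 1) not stated.

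Ratios were taken as log2 of (FPKM + 1) for loci averaging at least 1 FPKM in the 4 libraries. This scale understates the differences of low loci, and folds are plain ratios of FPKM. The lowest mean inside that filter was 1.002 FPKM and the highest outside it 0.999 FPKM. A fold threshold of 2 was used, and also whether the authors' limits of the compared libraries lie apart. With 1 library a group there was no test. Implied fragments are the squared ratio of 2 FPKM to the distance of the upper limit. This reading takes that distance as 2 Poisson standard deviations, and among values under 10 such fragments 93.8% in control 3 h and 88.3% in control 1 h came out as multiples of 0.5 within 0.02. Counting errors (SE) are from these fragments and cover counting error only, so variation between pools of larvae is not in them.

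Loci were named by rule. By identifier these are the 2 largest and 2 smallest ratios among loci averaging at least 5 FPKM. By position they are the 15 largest ratios in each direction and the 8 most abundant 2-fold different loci in each direction, with limits apart, at least 20 implied fragments and FPKM above 0 in both controls. Members of runs of at least 3 neighbouring loci and loci that differed 2-fold the other way with PTTH were added, 65 loci in all. Some loci in the text are outside these 65 and were given as examples that no rule here covers. They are among the loci of top abundance, those of long span, those listed at 0, and those beside the runs on nscaf2795 and nscaf2891. The loci, rules and comparisons were chosen with earlier results of these data known. The pathway and tissue marker lists could not be used, because 0 identifiers matched the 18210 genes of the RefSeq list. Computations used Python 3.11.15, numpy 2.4.6, pandas 2.3.3 and matplotlib 3.10.9.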

Additional observations from a re-analysis of the deposited data

Results flagged for a closer look

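Opposite directions between the times, 2-fold or more without and with hormone, were seen at 4 of the loci whose control limits lie apart. All 4 are among the 61 loci lower in the controls, and 4.2% of all compared loci were 2-fold higher with PTTH. The difference was not tested because each group is 1 library. Without the demand on limits, 5 of the 202 higher and 7 of the 106 lower loci in the controls went the opposite way with PTTH. Of all compared loci, 1.73% were 2-fold lower and 4.2% 2-fold higher with PTTH, and no test was made of these counts. The log2 ratio with PTTH minus that of the controls was 3.34 ± 0.37 (counting SE) at nscaf2853:1131823-1133652 and 2.23 ± 0.08 at nscaf1681:2093311-2096370. It was 2.96 ± 0.31 at nscaf2575:4345299-4350998 and 2.67 ± 0.30 at nscaf2575:4370066-4374241, where PTTH 1 h rests on 8.49 and 3.50 implied fragments.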

How the results depend on the processing

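Counts of loci 2-fold higher and lower at 3 h, 202 and 106 as deposited, were 310 and 182 with a pseudocount of 0.1 FPKM, 91 and 48 with 5 FPKM, 842 and 457 at 1.5-fold, and 24 and 11 at 4-fold. The lower count was 61 with limits apart and 66 with at least 20 implied fragments, an alternative chosen after seeing the data. Loci higher in both pairs of libraries, 83 as deposited, were 34 with a pseudocount of 5 FPKM, 292 at 1.5-fold and 8 at 4-fold. Loci lower in both, 27 as deposited, were 56 and 10 with pseudocounts of 0.1 and 5 FPKM, 175 and 2 at 1.5-fold and 4-fold, 17 with limits apart or at least 20 implied fragments, and 41 with a fixed total. The median log2 ratio of 0.06 was 0.0717 and 0.0463 with those pseudocounts, 0.00 without a filter or after centring, 0.00853 with upper-quartile scaling and -0.0454 with a fixed total. The median of loci of at least 20000 bases minus that of loci under 500 bases, 0.34, was 0.39 and 0.24 with those pseudocounts, 0.17 without a filter, 0.45 from 5 FPKM, 0.35 with a fixed total, 0.36 without loci listed at 0 and 0.37 with at least 20 implied fragments. The cause of these shifts was not tested. A pseudocount cannot change the direction of a locus, and the scalings moved ratios by about 0.12 or less on the log2 scale. The 65 named loci, all picked at 2-fold or more, therefore could not change direction. Under 2-fold were 15 of them with a pseudocount of 5 FPKM, 5 with a fixed total, 2 after centring and 1 with upper-quartile scaling. No paired analysis was possible because each group is 1 library and the 3 h and 1 h glands come from different larvae. Limits and SE cover counting error alone, and loci under 20 implied fragments cannot show a 2-fold difference reliably.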
